A study of Mus musculus with 4 samples.

Results

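The genes of the Hippo pathway and its targets were taken as a list of 39 mouse genes: the MST and LATS kinases with their adaptors, upstream regulators, the coactivators YAP and TAZ, the TEAD factors, VGLL cofactors, and 11 target genes. Members were matched by symbol in a table of 24689 genes, and 38 of the 39 had a row. The remaining member, Fjx1, is not analysed here. Of the 38, 37 averaged at least 1 CPM (reads scaled by the library total) over the 4 libraries and were tested with 13276 genes in all. The exception was Rbms3, listed among the target genes, which had 4.35 and 4.64 normalized reads in Pja2-induced cells, against 7.54 and 0 in control cells.

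RNA was sequenced in duplicate from HT-22 cells, an immortalized mouse hippocampal line, at passages 21 to 24. In 2 libraries the cells had been induced to express Pja2, and 2 libraries came from control cells. The controls are uninduced cells in one label and wild type in another, and the means of induction is not given. Whether both groups derive from the same line is therefore unknown, and a difference between lines and an effect of Pja2 cannot be told apart. Nothing in the labels ties the replicates to separate cultures, and the p-values cover the spread between these samples alone.

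In the Hippo pathway, the MST kinases with the adaptor Sav1 activate the LATS kinases with their cofactor MOB1, and active LATS phosphorylates YAP and TAZ. Phosphorylated YAP and TAZ are held in the cytoplasm or degraded, whereas the unphosphorylated proteins enter the nucleus and bind TEAD factors at target genes. Pja2 (praja2) is a RING-type E3 ubiquitin ligase, and MOB1 is one of its reported substrates. The pathway acts largely through protein modification, which RNA levels do not measure.

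The Pja2-induced libraries held 30080376 and 35262653 reads in genes and the control libraries 25787452 and 31010351, with 20494 to 21289 genes detected in each. Values are normalized reads, the read counts after scaling between libraries, in the order of replicates 1 and 2. Pja2 itself had 54830 and 54244 normalized reads in Pja2-induced cells, against 6167 and 5881 in control cells. This was a 9.05-fold difference (log2 fold change 3.18, SE 0.06, adjusted p = 6.36e-05), in the direction of the labels. Of 12 listed neuron markers, 8 had a row, and of these only Tubb3 and Syn1 reached 1 CPM. All 7 fibroblast markers had a row, and 6 reached it. The 8 neuron markers summed to 1840 and 1933 normalized reads in Pja2-induced cells, against 1880 and 1733 in control cells. The fibroblast markers summed to 316962 and 317777 in Pja2-induced cells, against 371911 and 324261 in control cells, and the collagen gene Col3a1 and the proteoglycan gene Dcn were lower in Pja2-induced cells (adjusted p = 0.0309 and 0.0259), calls that were not kept with every library left out in turn (largest adjusted p = 0.0858 and 0.0676). The neuron genes Dcx, Gap43, Mapt, Nefl, Stmn2 and Syp were below 1 CPM. So were all 4 endothelial markers with a row, Prox1 and Slc17a7 of hippocampal excitatory neurons, Gfap, S100b and Slc1a2 of astrocytes, and Cx3cr1, Csf1r and Itgam of microglia. Other markers of these types did reach an average of 1 CPM, namely Zbtb20 and Camk2a of hippocampal excitatory neurons, Slc1a3 and Aldh1l1 of astrocytes, and Tmem119 and Aif1 of microglia. Aldh1l1 reached it only through the control libraries. It had 5 and 16 reads in Pja2-induced cells, against 46 and 62 in control cells (log2 fold change -2.63, limma adjusted p = 0.0618). The part of these marker levels in the results was not tested.

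Among the 37 tested members, 1 was called higher in Pja2-induced cells (2.70%), beside 2.08% of all tested genes, and 3 were called lower (8.11%), beside 1.34%. The target genes Ctgf, Cyr61 and Ankrd1 were lower in Pja2-induced cells, at 0.626, 0.644 and 0.735 times their control levels. Vgll4, whose protein competes with YAP and TAZ for TEAD factors, was higher at 1.39 times. All core kinases, coactivators and TEAD factors were expressed, and none of them passed the threshold. In bulk RNA, fewer cells expressing a gene and less RNA per cell cannot be told apart.

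A gene was called where limma's adjusted p (Benjamini-Hochberg over all 13276 genes) was below 0.05. The groups did not overlap for 19 members (51.4%), beside 51.3% of all tested genes, so this share was that of the background. Of those 19 members, 10 were higher and 9 lower in Pja2-induced cells. The median log2 fold change was -0.03 over the members and 0.00 over all tested genes, and the median size regardless of sign was 0.15 and 0.14. Of the members, 3 had a log2 fold change beyond 0.5 in either direction, beside 9.33% of all tested genes.

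**Figure D1:**
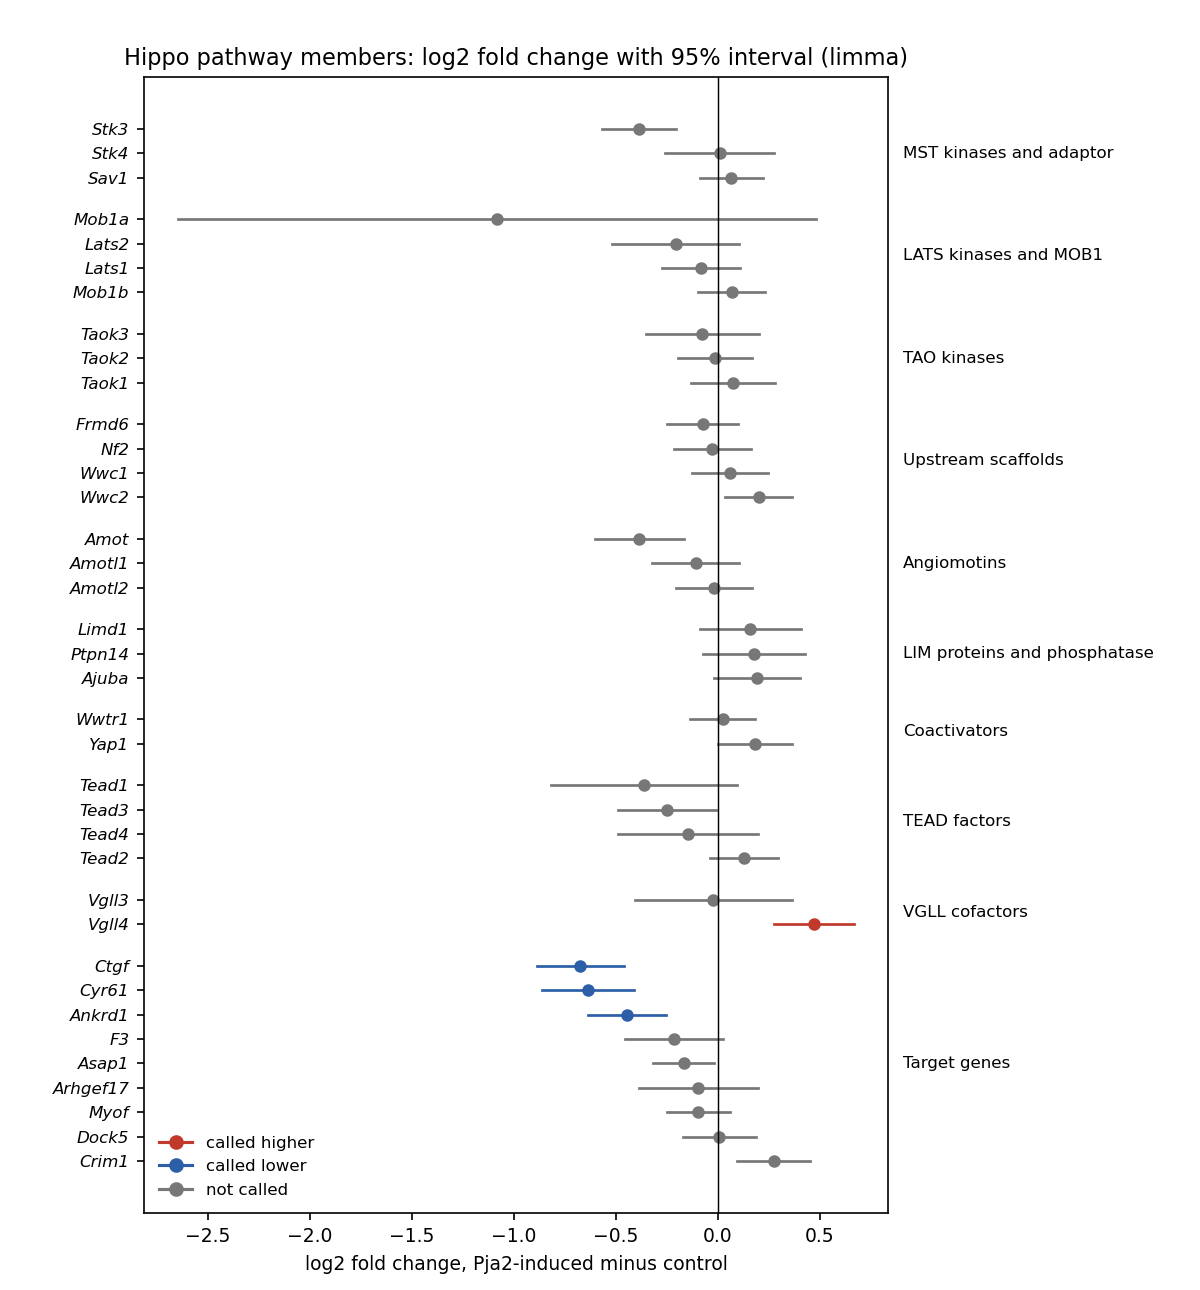
Log2 fold change of each of the 37 tested members, Pja2-induced minus control, with its 95% interval from limma, grouped by role; red marks a gene called higher, blue a gene called lower and grey one not called. Ctgf, Cyr61 and Ankrd1 lie below 0 and Vgll4 above 0, most other members lie near 0, and Mob1a has the widest interval (-2.65 to 0.48).

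The kinases at the head of the cascade were not called. Stk3, which encodes MST2, had 1419 and 1485 normalized reads in Pja2-induced cells, against 1884 and 1911 in control cells. The libraries of the groups did not overlap, and the adjusted p lay just above the threshold (log2 fold change -0.39, SE 0.07, adjusted p = 0.0553). Its paralog Stk4, which encodes MST1, had 1467 and 1669 in Pja2-induced cells, against 1670 and 1450 in control cells. These values overlapped, with an interval of the log2 difference from -0.26 to 0.27. Per kilobase of exon, the ratio of Stk4 to Stk3 was 1.08 and 1.17 in Pja2-induced cells, against 0.925 and 0.792 in control cells. The ratio was thus above 1 in both induced libraries and below 1 in both controls. Sav1, the scaffold that binds the MST kinases, had 3630 and 3530 in Pja2-induced cells, against 3403 and 3440 in control cells (log2 fold change 0.07, adjusted p = 0.616). The exons of Sav1 share 1336 bases with Atl1 on the opposite strand. Atl1 had 167 and 190 normalized reads in Pja2-induced cells, against 234 and 223 in control cells. The 3 TAO kinases Taok1, Taok2 and Taok3, which can activate MST, overlapped between the groups, with log2 fold changes of 0.07, -0.01 and -0.08.

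Mob1a, which encodes one of the MOB1 cofactors of LATS, differed between the induced libraries more than between the groups. It had 7147 and 1614 normalized reads in Pja2-induced cells, against 7131 and 7260 in control cells. Pja2-induced replicate 1 was at 0.993 times the control mean, and 4.43 times Pja2-induced replicate 2. The log2 fold change was -1.08 (SE 0.63, 95% interval -2.65 to 0.48, adjusted p = 0.414). Without Pja2-induced replicate 2 it was -0.01 (adjusted p = 0.975), and without Pja2-induced replicate 1 it was -2.16 (adjusted p = 0.000374), so a single library set the value. In that library, 32 genes including Mob1a lay at least 2-fold below the other 3, which were themselves within 1.5-fold of each other. The same count was 26 in Pja2-induced replicate 1, 16 in control replicate 1 and 34 in control replicate 2, so drops of at least 2-fold in 1 library occurred in all 4, and drops as large as that of Mob1a were not counted separately. This rule was chosen after the Mob1a values were seen, and what set the Mob1a value in this library was not tested. The paralog Mob1b had 3362 and 3555 in Pja2-induced cells, against 3315 and 3289 in control cells. It was higher in both induced libraries but was not called, with a 95% interval of the log2 difference from -0.10 to 0.23 (adjusted p = 0.631).

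The LATS kinases, which phosphorylate YAP and TAZ, were not called. Lats1 had 2991 and 3270 normalized reads in Pja2-induced cells, against 3430 and 3206 in control cells (log2 fold change -0.08, 95% interval -0.28 to 0.11, adjusted p = 0.603). Lats2 had 1503 and 1192 in Pja2-induced cells, against 1606 and 1487 in control cells (log2 fold change -0.21, 95% interval -0.52 to 0.11, adjusted p = 0.434). The values of both genes overlapped between the groups, and Lats2 was lowest in Pja2-induced replicate 2. In GENCODE M21 the exons of Lats2 share 2955 bases with the gene Gm49361 on the same strand. No row carries the symbol Gm49361, so no reads were listed under it.

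Scaffolds upstream of the kinases showed no called difference. Nf2, which encodes merlin, a scaffold that brings LATS to the membrane, had 3362 and 3734 normalized reads in Pja2-induced cells, against 3672 and 3559 in control cells (log2 fold change -0.03, adjusted p = 0.870). For the KIBRA family scaffolds Wwc1 and Wwc2 the log2 fold changes came to 0.06 (adjusted p = 0.727) and 0.20 (adjusted p = 0.191), and Frmd6, a FERM domain protein, had -0.08 (adjusted p = 0.609). The exons of Wwc2 share 995 bases with Cldn22 on the opposite strand, and the TruSeq RNA kit named in the labels does not mark strand. Ajuba and Limd1, LIM proteins that restrain LATS, and Ptpn14, a phosphatase that binds YAP, had log2 fold changes of 0.19, 0.16 and 0.18. All 3 values were positive, and none was called (adjusted p = 0.300, 0.446 and 0.403).

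The angiomotins bind YAP at junctions and on actin. Amot had 3788 and 4055 normalized reads in Pja2-induced cells, against 5498 and 4769 in control cells, without overlap (log2 fold change -0.39, SE 0.09, adjusted p = 0.0904). Amotl2, which is also a YAP target, had 4083 and 4399 in Pja2-induced cells, against 4478 and 4128 in control cells (log2 fold change -0.02, adjusted p = 0.905). Its values overlapped between the groups, as did those of Amotl1 (log2 fold change -0.11, adjusted p = 0.548). Per kilobase, Amot made up 31.4% and 31.0% of the 3 angiomotins' reads in Pja2-induced cells, against 37.0% and 35.8% in control cells.

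The coactivator genes Yap1 and Wwtr1, which encodes TAZ, were not called. Yap1 had 4047 and 4273 normalized reads in Pja2-induced cells, against 3827 and 3512 in control cells (log2 fold change 0.18, 95% interval -0.00 to 0.36, adjusted p = 0.262). Both induced libraries lay above both controls. Wwtr1 had 4968 and 5089 in Pja2-induced cells, against 5103 and 4801 in control cells (log2 fold change 0.02, 95% interval -0.14 to 0.18, adjusted p = 0.879), with overlapping values. Per kilobase, Wwtr1 was above Yap1 in every library, by 2.38 and 2.31 times in Pja2-induced cells, against 2.58 and 2.65 times in control cells.

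The TEAD factors bind DNA for YAP and TAZ. Tead1 had 974 and 1251 normalized reads in Pja2-induced cells, against 1217 and 1654 in control cells. These values overlapped (log2 fold change -0.36, 95% interval -0.82 to 0.09, adjusted p = 0.354). For Tead2, Tead3 and Tead4 the log2 fold changes came to 0.13, -0.25 and -0.15 (adjusted p = 0.365, 0.250 and 0.614). Tead2 was the main TEAD gene per kilobase, with 68.3% and 65.1% of the family's reads in Pja2-induced cells, against 61.2% and 60.1% in control cells. Tead1 had the smallest share, with 6.78% and 8.04% in Pja2-induced cells, against 8.41% and 10.6% in control cells. Tead4 came next, with 9.33% and 10.2%, against 10.5% and 10.9%. That order rests on the exon lengths used, 13.57 kb for Tead1 and 3.598 kb for Tead4. In normalized reads Tead4 lay below Tead1, at 356 and 420 in Pja2-induced cells, against 404 and 454 in control cells. The family's summed level per kilobase overlapped, at 1059 and 1147 in Pja2-induced cells, against 1066 and 1153 in control cells.

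**Figure D2:**
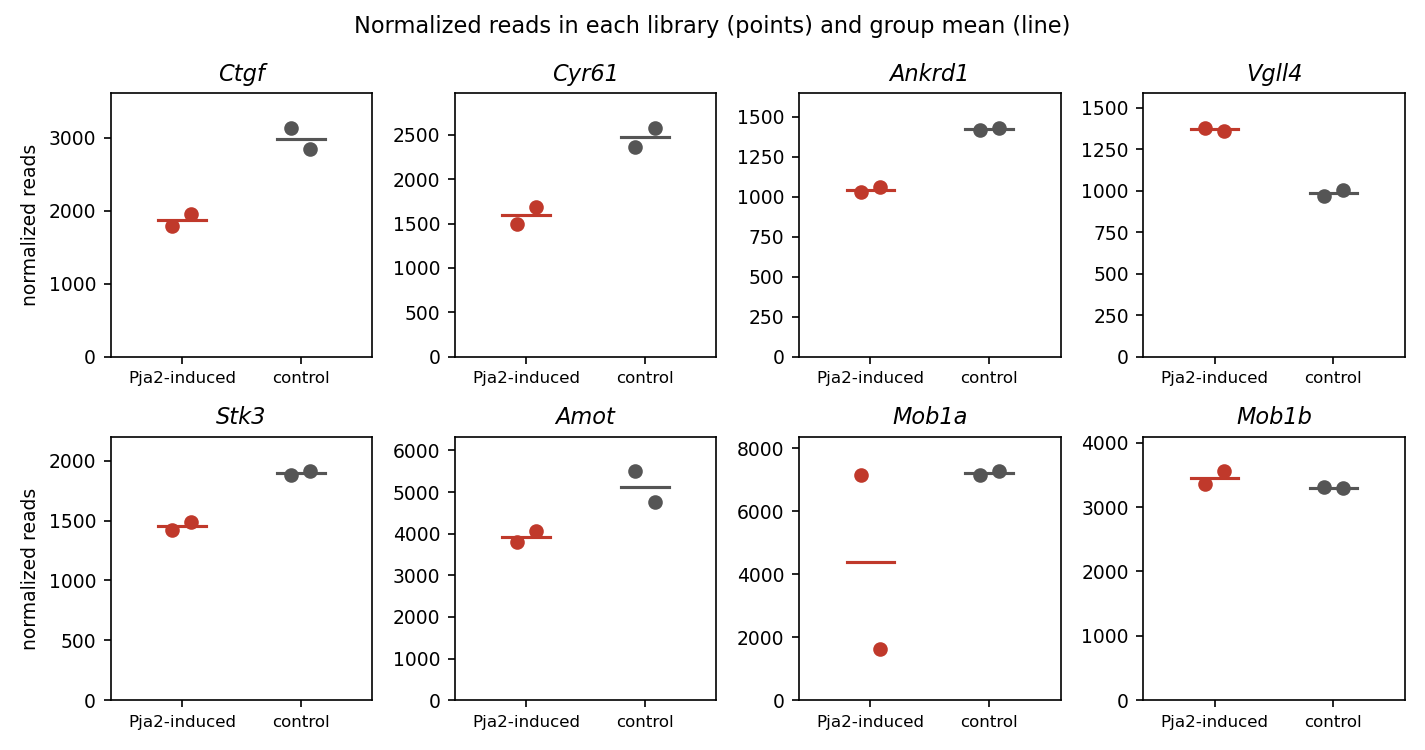
Normalized reads of 8 members in each of the 4 libraries (points) with the mean of each group (line), Pja2-induced on the left and control on the right of each panel. Ctgf, Cyr61 and Ankrd1 are lower and Vgll4 is higher in both induced libraries, and Mob1a is low in Pja2-induced replicate 2, at 1614, while the other 3 libraries lie between 7131 and 7260.

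Vgll4 was the member that rose. It had 1378 and 1358 normalized reads in Pja2-induced cells (1368 ± 14.2, SD, n = 2), against 967 and 1005 in control cells (986 ± 26.6, SD, n = 2). The pairwise ratios of an induced to a control library ran from 1.35 to 1.42 (log2 fold change 0.47, SE 0.08, adjusted p = 0.0399). The call was not kept with any 1 of the 4 libraries left out, which leaves 1 library in a group. The log2 fold change then lay between 0.44 and 0.50. With all 4 libraries kept but no trend in the variance prior, the Vgll4 call was lost as well. Vgll3, another TEAD cofactor, was the least abundant tested member, with 161 and 174 normalized reads in Pja2-induced cells, against 170 and 171 in control cells (adjusted p = 0.950). The 250 bases before the Vgll4 start (RefSeq, GRCm38.p6, chr6:114969204-114969453, minus strand) are shown because this is the member that rose, with the TEAD core motif GGAATG in capitals, 82 bases before the start.
Vgll4: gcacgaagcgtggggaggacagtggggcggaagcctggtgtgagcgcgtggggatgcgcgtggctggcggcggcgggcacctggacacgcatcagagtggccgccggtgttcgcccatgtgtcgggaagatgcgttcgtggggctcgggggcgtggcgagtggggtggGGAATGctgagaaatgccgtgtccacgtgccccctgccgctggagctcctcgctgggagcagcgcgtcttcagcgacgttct

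The YAP target genes held the 3 members that fell. Ctgf, a secreted matricellular protein and a standard readout of YAP activity, had 1788 and 1955 normalized reads in Pja2-induced cells (1871 ± 118, SD, n = 2), against 3135 and 2842 in control cells (2989 ± 207, SD, n = 2). The pairwise ratios ran from 0.570 to 0.688 (log2 fold change -0.67, SE 0.09, adjusted p = 0.0223). Cyr61, a related secreted protein, had 1500 and 1684 in Pja2-induced cells (1592 ± 131, SD, n = 2), against 2364 and 2580 in control cells (2472 ± 153, SD, n = 2). Its pairwise ratios ran from 0.581 to 0.712 (log2 fold change -0.64, SE 0.09, adjusted p = 0.0281). For both genes, each induced library lay below each control.

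Ankrd1, an ankyrin repeat protein of muscle and of YAP-active cells, had 1030 and 1061 normalized reads in Pja2-induced cells (1045 ± 22.05, SD, n = 2), against 1415 and 1431 in control cells (1423 ± 11.7, SD, n = 2). The ratios ran from 0.720 to 0.750 (log2 fold change -0.44, SE 0.08, adjusted p = 0.0438), the smallest of the 3 falls. With 1 library left out in turn, the adjusted p ran from 0.0314 to 0.0553 for Ctgf, 0.0355 to 0.0734 for Cyr61 and 0.106 to 0.177 for Ankrd1. The log2 fold change stayed between -0.75 and -0.60 for Ctgf, -0.72 and -0.55 for Cyr61 and -0.47 and -0.42 for Ankrd1. Ankrd1 lost its call whichever library was left out, and Cyr61 kept it only without Pja2-induced replicate 2. Ctgf lost its call without Pja2-induced replicate 1 (adjusted p = 0.0535) and without control replicate 1 (adjusted p = 0.0553). The exons of Ctgf share 665 bases with the antisense gene Gm15270, which had 31.5 and 66.8 normalized reads in Pja2-induced cells, against 83.0 and 77.9 in control cells. Reads from the shared bases cannot be told apart without strand, and these levels were far below those of Ctgf.

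The other 6 tested targets were not called, and they went in both directions. Crim1, a transmembrane protein with cysteine-rich repeats, had 5698 and 6021 normalized reads in Pja2-induced cells, against 5061 and 4637 in control cells, without overlap (log2 fold change 0.27, adjusted p = 0.124). F3, which encodes tissue factor, had a log2 fold change of -0.22 (adjusted p = 0.307), and Asap1, an Arf GTPase-activating protein, had -0.17 (adjusted p = 0.219). Myof (myoferlin) and the guanine nucleotide exchange factor Arhgef17 had -0.10 each (adjusted p = 0.462 and 0.702), and the Rac exchange factor Dock5 had 0.01 (adjusted p = 0.968). Over the 9 tested targets the median log2 fold change was -0.17, and 7 were below 0, beside 49.6% of all tested genes. The 28 other tested members had a median of -0.02, with 15 below 0. This split followed the role assigned to each member, and members with another role can be YAP targets too, as Amotl2 is. Amotl2 (log2 fold change -0.02), Lats2 (-0.21), Ajuba (0.19) and Ptpn14 (0.18) were counted among the other members, so both medians depend on the split. The difference between these 2 groups of members was not tested. Per kilobase of exon, Cyr61 and Ctgf were among the most abundant members in control cells, with means of 1224 and 1045 normalized reads per kilobase, next to Mob1a (1501) and Wwtr1 (1036). The control libraries of Ctgf and Wwtr1 overlapped on this scale. In Pja2-induced cells, Cyr61 (788) and Ctgf (654) lay below Wwtr1 (1052) and Crim1 (977).

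**Figure D3:**
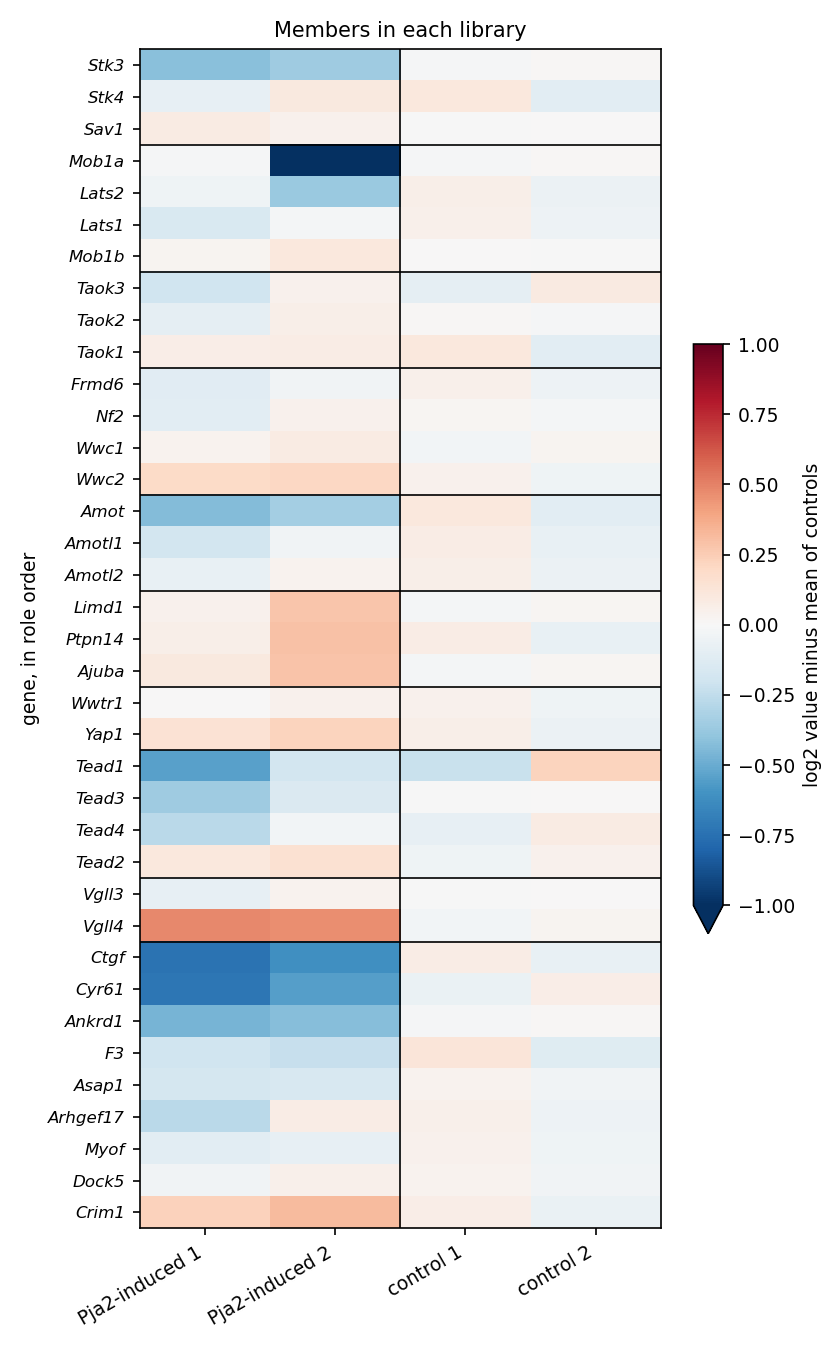
Each tested member in each of the 4 libraries as the log2 difference from the mean of the 2 control libraries, with genes in rows by role and Pja2-induced libraries in the left columns. Ctgf, Cyr61 and Ankrd1 are below the control mean in both induced libraries and Vgll4 is above it, while Mob1a is far below it in Pja2-induced replicate 2 and near it in replicate 1. The colour scale ends at 1 in either direction, and Mob1a in that library lies beyond it.

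Promoter windows, from 250 bases before to 50 after an annotated start, were found in RefSeq (GRCm38.p6) for 30 of the 38 members with a row, with 36 windows in all. Ctgf was among the members without a window, and its promoter was not searched. The TEAD core motif GGAATG, on either strand, was in at least 1 window of 15 of the 30 members (50.0%), beside 14.35% of the 9433 tested genes with a window. Of the 36 members' windows 47.22% held it, beside 12.24% of the 12014 windows of tested genes and 14.66% of all 32851 windows. Windows of 1 gene can overlap, and both windows of Wwtr1 held the same site. It was in 3 of the 6 target genes with a window, namely Ankrd1, Crim1 and Cyr61, and in 12 of the 24 other members, among them Yap1, Wwtr1, Amotl2, Lats2, Ajuba and Vgll4. The share was the same in both sets, but the sets follow the assigned roles, and the other members include YAP targets such as Amotl2. A match describes letters, not binding. The AP-1 core TGANTCA, which can share end bases with GGAATG, was in 1 member, F3, beside 6.1% of the tested genes. Mean GC content was 63.3% in the members' windows and 60.6% in those of the tested genes. The 250 bases before the start of the called targets with a window are shown with the motif, or its reverse complement, in capitals (GRCm38.p6, both on the minus strand of the genome). For Ankrd1 (chr19:36119845-36120094) the motif lies 210 and 123 bases before the start, and for Cyr61 (chr3:145649986-145650235, listed under the newer symbol Ccn1) it lies on the other strand, 103 bases before the start.
Ankrd1: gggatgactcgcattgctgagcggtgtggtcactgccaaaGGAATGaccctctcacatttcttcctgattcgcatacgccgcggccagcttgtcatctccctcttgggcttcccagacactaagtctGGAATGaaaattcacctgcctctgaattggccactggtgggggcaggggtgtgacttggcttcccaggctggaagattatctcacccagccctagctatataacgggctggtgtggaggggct
Cyr61: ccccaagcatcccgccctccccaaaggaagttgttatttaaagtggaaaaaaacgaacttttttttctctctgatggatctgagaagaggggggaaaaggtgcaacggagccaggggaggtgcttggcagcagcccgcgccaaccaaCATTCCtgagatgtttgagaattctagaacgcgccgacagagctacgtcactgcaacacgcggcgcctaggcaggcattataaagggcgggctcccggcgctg

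Genes around the pathway that are not members were read from the same fit, in which 2.08% of all tested genes were called higher and 1.34% lower. Of 8 genes of a YAP and TAZ target signature, 7 had a row and 6 were tested. Nt5e was too low to test, with 6.52 and 2.78 normalized reads in Pja2-induced cells, against 11.3 and 10.5 in control cells. Of the 6, 1 was higher in Pja2-induced cells and 0 were lower, with a median log2 fold change of 0.15. The gene that rose was Foxf2, a forkhead transcription factor, with 5411 and 5363 normalized reads in Pja2-induced cells, against 3151 and 3243 in control cells (log2 fold change 0.75, SE 0.06, adjusted p = 0.00698). Axl, a receptor tyrosine kinase, had 25202 and 26170 in Pja2-induced cells, against 21006 and 22472 in control cells (log2 fold change 0.24, adjusted p = 0.126). The call in this list was thus opposite in direction to those of Ctgf, Cyr61 and Ankrd1. Of all 6 genes 4 were above 0 and 2 below, with log2 fold changes from -0.77 to 0.75.

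Of 7 tested MAP4K kinases, which can phosphorylate LATS in parallel to MST, 0 were higher and 1 was lower. Tnik had 5.44 and 1.85 normalized reads in Pja2-induced cells, against 81.7 and 55.8 in control cells. These rest on 5 and 2 reads in Pja2-induced cells, against 65 and 53 in control cells (log2 fold change -4.00, SE 0.56, adjusted p = 0.0271). Tnik passed the 1 CPM filter only through the control libraries, so it had to differ between the groups to be tested, and its call is no support for the list. The call was lost without control replicate 1 (adjusted p = 0.108) and without control replicate 2 (adjusted p = 0.0718). Map4k4, the most abundant of them, had 13155 and 14177 in Pja2-induced cells, against 10967 and 10911 in control cells (log2 fold change 0.32, adjusted p = 0.0622). No call was made among 15 tested genes of the STRIPAK phosphatase complex, which acts on MST, among 6 NDR kinases and MOB relatives, among 13 RASSF, FAT and polarity genes, or among 11 genes of 14-3-3 proteins and YAP degradation. Their median log2 fold changes were -0.06, -0.22, 0.14 and 0.04, in that order, and 2 genes of each list had an unadjusted p below 0.05, which was the case for 19.1% of all tested genes.

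Genes around SRF, an actin-responsive transcription factor, were read out in the same way, in a list that includes Srf itself. Immediate early genes, which respond quickly to growth factors, were read out likewise. Of 12 tested SRF and actin genes, Acta2, smooth muscle actin, was higher, with 393 and 403 normalized reads in Pja2-induced cells, against 207 and 143 in control cells (log2 fold change 1.20, SE 0.20, adjusted p = 0.0402), and 0 were lower. Of 12 tested immediate early and AP-1 genes, 1 was higher and 1 lower. Junb, an AP-1 subunit, had 2269 and 2075 in Pja2-induced cells, against 1291 and 1415 in control cells (log2 fold change 0.68, adjusted p = 0.0226). Egr1, a zinc finger immediate early factor, had 1806 and 1641 in Pja2-induced cells, against 2496 and 2682 in control cells (log2 fold change -0.59, adjusted p = 0.0280). With 1 library left out in turn, the largest adjusted p was 0.109 for Acta2, 0.0648 for Junb and 0.0873 for Egr1, and 0.0216 for Foxf2, which kept its call in these 4 refits.

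**Figure D4:**
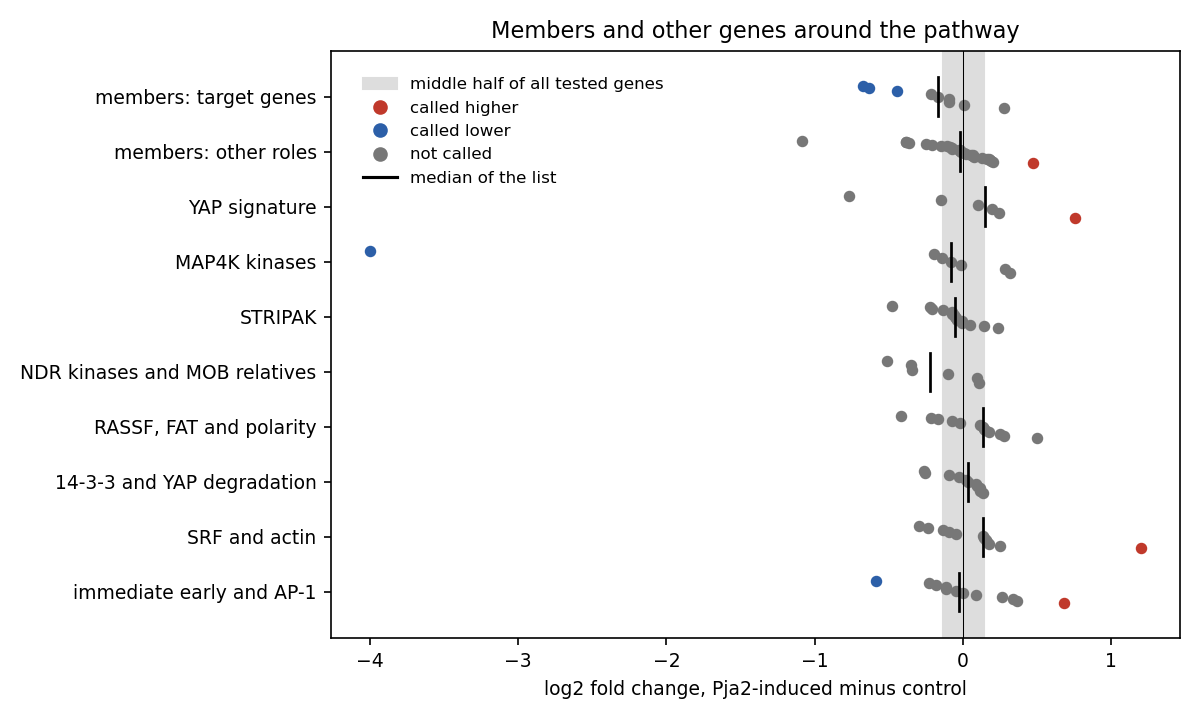
Log2 fold change, Pja2-induced minus control, of every tested gene (points) in the members listed as targets, the members with other roles, and 8 lists of genes around the pathway. The list's median is a line, and the middle 50% of all tested genes is shaded. The medians lie between -0.22 and 0.15, and the YAP signature genes outside the members have a median of 0.15, against -0.17 for the member targets.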

How the data were processed

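RNA was sequenced from 4 libraries of HT-22 cells, 2 Pja2-induced and 2 control, extracted with Trizol and prepared with a TruSeq RNA kit, per the labels' protocols. The submitters' processing notes name HISAT, Cufflinks and the build mm9, without versions; how reads were counted and scaled is not given in the sources used here. In their deposited table the authors give log2 values for 24689 genes. Reading 2 to the power of each value, less 1, gave whole multiples of 1 step per library for 100% of values (tolerance 0.01), so the values are log2(normalized reads + 1), with a pseudocount of 1 that understates the change of low genes.

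Genes averaging 1 CPM or more (25.8 to 35.3 reads) over the 4 libraries were fitted with limma 3.58.1 (R 4.3.3, trended variance, no covariate), with two-sided p-values adjusted by Benjamini-Hochberg over all 13276 genes and a threshold of 0.05. Intervals are limma's 95% intervals, unadjusted. A ratio is that of mean normalized reads. Because the deposited unit is log2, no count model was used, and limma voom on the recovered reads was run as an alternative. Exon lengths and overlaps come from GENCODE M21 (GRCm38), another build than the files', so the table's genes carry no coordinates. A length merges all annotated exons of a gene, so the order of genes per kilobase depends on it. In all, 10 of the 38 members share exon bases with another gene.

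The members and gene lists were chosen with earlier results of these data known. Library values are given for Pja2, called members, and a set of core genes and targets (Mob1a, Mob1b, Lats1, Lats2, Stk3, Stk4, Sav1, Nf2, Yap1, Wwtr1, Tead1, Ctgf, Cyr61, Ankrd1, Amotl2); in other lists, called genes and up to 2 of highest expression are named. Library values of Aldh1l1, Amot, Atl1, Crim1, Nt5e, Rbms3, Tead4, Vgll3 and Gm15270 were added after their values were seen. Alternatives were other filters, pseudocounts and scalings, voom, an untrended prior, a replicate block, and leaving out each library.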

Additional observations from a re-analysis of the deposited data

How the results depend on the processing

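The 4 member calls held with a 5 CPM filter, pseudocounts of 0.5 and 5, scaling by total reads or by the upper quartile, and limma voom. The count of members lower in Pja2-induced cells (3) became 0 without the expression filter and 0 with no trend in the variance prior, and ran from 0 to 2 with 1 library left out. The lower call without Pja2-induced replicate 1 was Mob1a (log2 fold change -2.16), not a target gene. The count of members higher (1) became 0 without the filter, with no trend, with the replicate block, and whichever library was left out (0 in each). Over all genes, 276 higher and 178 lower became 100 and 59 without the filter, which tests 24689 genes, 64 and 52 with no trend, and ranged from 113 to 204 and from 78 to 136 with 1 library left out. Same-numbered replicates did not deviate together (correlation -0.10 over 13276 genes), so the numbers were not taken to pair samples; with a replicate block 157 genes were higher and 104 lower, and 2 members were lower (Ctgf and Cyr61). Beyond the stated constructions, the cause of these changes was not tested. The members' median log2 fold change (-0.03) ranged from -0.09 to 0.04 with 1 library left out. No value of a gene named here changed direction past the threshold, and the sign of uncalled members near 0 changed in up to 3 of 13 settings (Dock5). With 2 libraries per group, calls rest on the spread pooled over genes, and Rbms3 (at most 7.54 normalized reads) was too low to test.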
